A study of Mus musculus with 12 samples.

Results

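The genes described here are the tumour suppressor gene Trp53, its regulators Mdm2 and Usp7, the p53 targets Cdkn1a, Ccng1 and Gadd45a, and the CDK inhibitor genes Cdkn1b, Cdkn1c, Cdkn2a and Cdkn2b. They are 10 of the 28689 genes in the deposited expression table and were taken by name, although with earlier results of these data known. RNA-seq was run on primary mouse lung endothelial cells (MLECs) from 6 control libraries (CTR) and 6 libraries of endothelial Sp1/Sp3 double knockout mice (dKO), adult males in both groups. The dKO mice carried loxP-flanked alleles of both transcription factor genes (Sp1 fl/fl, Sp3 fl/fl) and VE-CAD-CreERT2, a tamoxifen-activated Cre recombinase driven by the VE-cadherin promoter, and the CTR mice were littermates without Cre, although the sample labels call them WT. Both groups received tamoxifen, so the groups differ in the presence of Cre as well as in the deletion. MLECs were selected on beads for CD31 and then for ICAM2 and were used after 1 to 3 passages, so cells that never expressed Cre keep intact alleles. How many mice stand behind a library is not given in the sources used here, and p-values measure the spread between these libraries.

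p53 is a transcription factor that accumulates after DNA damage and other stresses and switches on genes for cell cycle arrest, DNA repair and apoptosis. Mdm2 is both its target and its E3 ubiquitin ligase, which closes a feedback loop, and Usp7 is a deubiquitinase that removes ubiquitin from both proteins. CDK inhibitors hold back the kinases that drive the cell cycle. The Cip/Kip proteins p21 (Cdkn1a), p27 (Cdkn1b) and p57 (Cdkn1c, an imprinted gene) bind several cyclin-CDK complexes, whereas the INK4 proteins p16 (Cdkn2a) and p15 (Cdkn2b) bind CDK4 and CDK6. Cdkn2a also encodes p19Arf, an inhibitor of Mdm2, from another first exon, and a gene-level value cannot separate the products. In endothelium, p16 and p21 are widely used as markers of senescence. The study measured them as proteins for that purpose in cultured human umbilical vein endothelial cells. Sp1 and Sp3 are zinc finger factors that bind GC-rich promoter elements called GC boxes.

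Sequences around the start sites are shown for 5 of these genes, because GC boxes are the elements through which Sp1 and Sp3 act and because the genes differ in how many they hold. Each window runs from 250 bases before to 50 bases after a RefSeq start site (GRCm38.p6 promoter table) and was placed on GRCm39 by an exact match, which was unique for every window. Windows were found for 9 of the 10 genes, 11 windows in all, since Cdkn1a and Cdkn2a have 2 start sites each. Capitals mark GC boxes, which are GGGCGG on the gene's strand or CCGCCC where the box lies on the other strand.

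Cdkn1a, chr17:29312493-29312792, plus strand: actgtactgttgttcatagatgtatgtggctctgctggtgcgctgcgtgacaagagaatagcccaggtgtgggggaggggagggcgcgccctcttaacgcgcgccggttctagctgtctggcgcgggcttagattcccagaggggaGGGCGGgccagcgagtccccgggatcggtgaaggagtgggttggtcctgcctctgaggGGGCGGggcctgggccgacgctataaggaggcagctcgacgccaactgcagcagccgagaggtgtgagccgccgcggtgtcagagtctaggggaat
Mdm2, chr10:117546614-117546913, minus strand: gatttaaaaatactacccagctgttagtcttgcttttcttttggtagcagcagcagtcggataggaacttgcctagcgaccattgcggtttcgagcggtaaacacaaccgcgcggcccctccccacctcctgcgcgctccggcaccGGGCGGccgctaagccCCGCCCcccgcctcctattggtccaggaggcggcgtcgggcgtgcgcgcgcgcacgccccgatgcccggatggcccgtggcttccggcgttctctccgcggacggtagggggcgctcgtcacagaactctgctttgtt
Ccng1, chr11:40646064-40646363, minus strand: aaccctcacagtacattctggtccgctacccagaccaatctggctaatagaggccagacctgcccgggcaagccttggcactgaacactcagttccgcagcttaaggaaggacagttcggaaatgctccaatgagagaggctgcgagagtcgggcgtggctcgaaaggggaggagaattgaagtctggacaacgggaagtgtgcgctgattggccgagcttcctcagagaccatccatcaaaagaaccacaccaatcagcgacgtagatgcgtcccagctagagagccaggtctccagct
Gadd45a, chr6:67014342-67014641, minus strand: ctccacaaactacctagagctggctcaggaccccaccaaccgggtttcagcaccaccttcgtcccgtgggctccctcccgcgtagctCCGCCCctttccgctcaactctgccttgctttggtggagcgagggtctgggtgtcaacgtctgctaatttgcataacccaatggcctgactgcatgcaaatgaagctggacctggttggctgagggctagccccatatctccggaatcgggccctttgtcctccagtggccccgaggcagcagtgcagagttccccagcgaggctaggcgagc
Usp7, chr16:8556157-8556456, minus strand: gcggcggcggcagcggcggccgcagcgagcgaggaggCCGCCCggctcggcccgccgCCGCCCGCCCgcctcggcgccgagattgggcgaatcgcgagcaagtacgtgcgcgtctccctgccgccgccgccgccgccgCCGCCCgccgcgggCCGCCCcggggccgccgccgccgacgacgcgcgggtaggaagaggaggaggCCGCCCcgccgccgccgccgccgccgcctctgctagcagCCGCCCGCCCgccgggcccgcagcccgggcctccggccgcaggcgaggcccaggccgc

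At least 1 GC box stood in 8 of the 11 windows, which belong to 7 of the 9 genes, and in 63.2% of the 11633 windows of all genes tested. Usp7 held 8 boxes in a window of 86.0% G+C, the downstream Cdkn1a start held 2, and Mdm2 held 2. Boxes that shared bases were counted separately, so some stretches of capitals in Usp7 hold more than 1 box. Gadd45a, Cdkn1b and Cdkn2b held 1 each. The upstream Cdkn2a window (chr4:89212807-89213106), the start used for p19Arf, held 3 boxes, and the downstream one (chr4:89200380-89200679), used for p16, held 1. The windows of Trp53 and Ccng1 and the upstream window of Cdkn1a held none. A search for the p53 consensus element, 2 adjacent half-sites of 10 bases with at most 1 mismatch and none at the core C and G of a half-site, found a match in the windows of 2 genes. One lay 51 bases before the upstream Cdkn1a start and ended 2822 bases before the downstream start, and the other lay 195 bases before the Ccng1 start, inside the window printed above. Capitals mark the core of each half-site.

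Cdkn1a, chr17:29309902-29309921, plus strand: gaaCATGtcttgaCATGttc
Ccng1, chr11:40646289-40646308, minus strand: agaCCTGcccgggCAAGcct

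Only 6 of the 11633 windows of genes tested, 0.0516%, held such a match, these 2 included. No window with a p53 match among the 10 genes held a GC box, so the 2 kinds of match did not overlap. A match says only that the letters are present, and the lack of one says nothing about elements outside these windows.

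Library depth, recovered from the steps of the low FPKM values, ran from 15523054 to 17938286 fragments. Replicate 1 of dKO and replicate 4 of CTR were each the highest or lowest library of their group in several of the 10 genes. Values without them are given beside the genes whose call changed. Sp1 was measured at 21.2 ± 1.77 FPKM in CTR and 10.6 ± 1.53 in dKO (mean ± SD, n = 6 each), with every dKO library below every CTR library (log2 fold change −0.95, adjusted p = 5.7e-06). Sp3 was 27.7 ± 2.31 FPKM in CTR and 25.0 ± 1.64 in dKO and did not pass (adjusted p = 0.0902), although it did without CTR replicate 6 (adjusted p = 0.0328). A gene total counts every exon, so it does not show whether the deleted exons were lost. All 10 endothelial markers on the list were detected and higher in dKO, with a summed level of 162 to 258 FPKM in CTR and 299 to 402 in dKO (Cdh5, the gene of VE-cadherin, was the most abundant). All 10 macrophage markers were higher too, at a sum of 711 to 1244 FPKM in CTR and 2378 to 5281 in dKO (Lyz2 the most abundant), and 5 of 6 mesothelial markers were higher (28.8 to 38.6 against 66.3 to 146 FPKM, Msln the most abundant). Of 7 fibroblast markers tested, 3 were lower and 1 higher (sums of 2128 to 2710 and 829 to 1662 FPKM, Col1a1 the most abundant). Of 7 smooth muscle and pericyte markers 2 were higher (509 to 1428 and 465 to 851 FPKM, Acta2 the most abundant), of 5 epithelial markers 1 was higher (81.2 to 492 and 142 to 352 FPKM, Sftpc the most abundant), and of 6 leukocyte markers the 2 that were tested were higher (1.65 to 4.87 and 6.53 to 10.8 FPKM, S100a8 the most abundant). No list had a marker at 0 in all 12 libraries, although Cd3e, a defining T cell gene, was at 0 in all 6 CTR libraries. The part that these cell types play in the values below was not tested, and in such bulk samples a change in the number of cells of a type and a change in RNA per cell cannot be told apart.

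All 10 genes had an FPKM of at least 1 in all 12 libraries and passed the filter on low values. In dKO, Cdkn1a, Mdm2 and Ccng1 rose, and Gadd45a, Cdkn1b and Usp7 fell, whereas Trp53, Cdkn1c, Cdkn2a and Cdkn2b did not pass the test. The 3 genes that rose stand against 20.4% of all 12467 genes tested that were called higher at an adjusted p under 0.05, and the 3 that fell against 32.6% called lower (limma on log2(FPKM + 1), Benjamini-Hochberg adjustment). Of all calls 38.5% were higher in dKO, and 50.9% were with median-of-ratios scaling, under which 1 of the 10 genes, Gadd45a, stayed lower. Cdkn1a and Ccng1 had every dKO library above every CTR library, which 11.3% of genes tested did, and Gadd45a and Usp7 had every dKO library below, which 16.1% did. With a log2 fold change beyond 1.5 in either direction asked for as well, 1.98% of genes tested passed and none of the 10 did, although Gadd45a passed with TPM rescaling (−1.52) and without CTR replicate 4 (−1.58). The median log2 fold change of the 10 genes was −0.12, and that of all genes tested was −0.10.

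**Figure D1:**
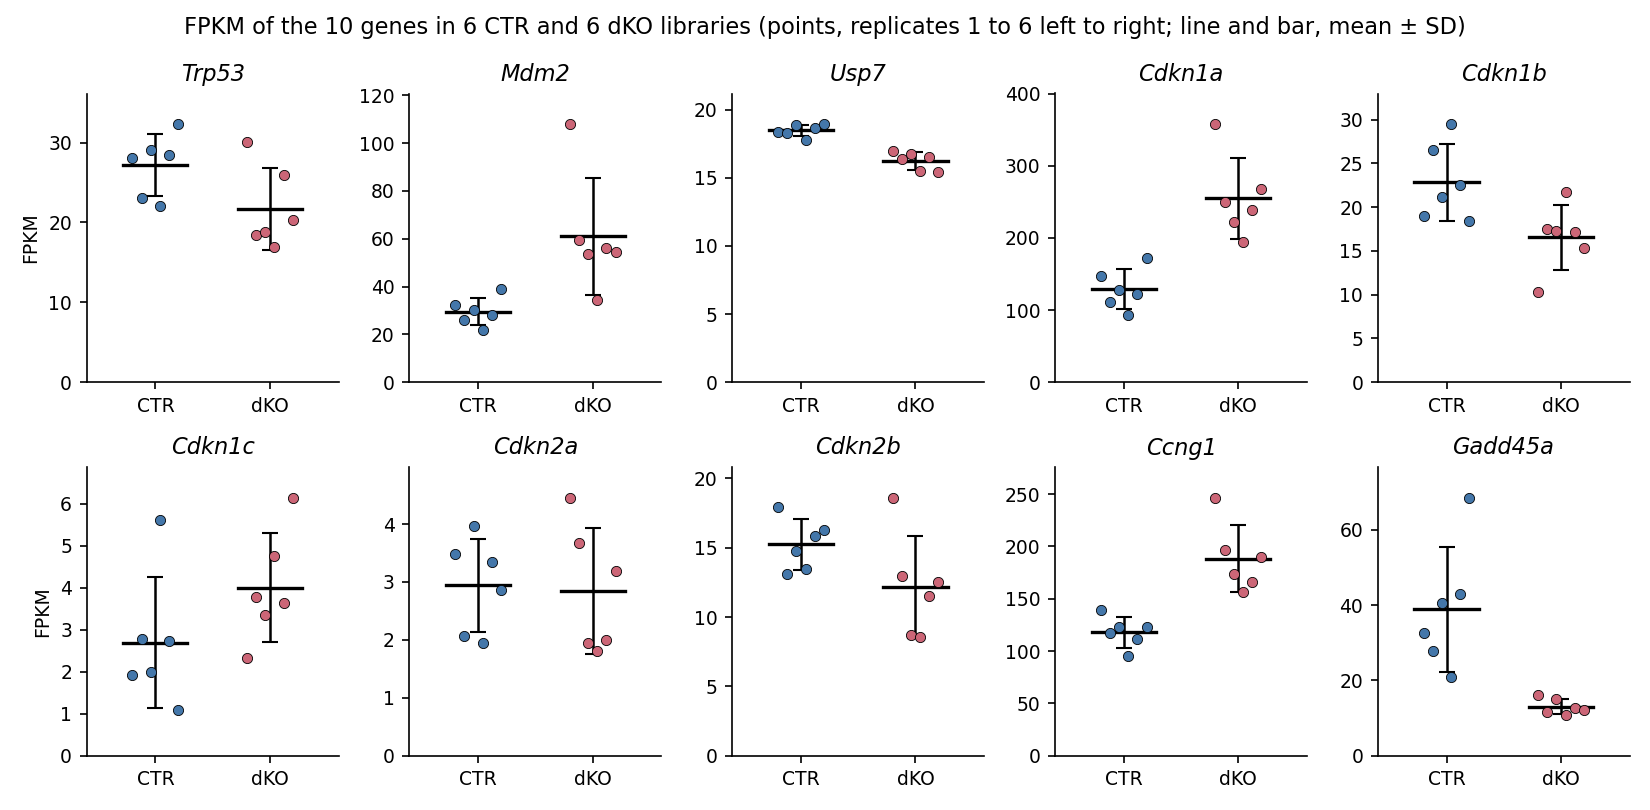
FPKM (y axis, from 0, a scale for each panel) of the 10 genes in the CTR (blue) and dKO (red) libraries, 6 each; points are libraries, and the line and bar are the mean ± SD. Cdkn1a and Ccng1 are higher in all 6 dKO libraries and Gadd45a and Usp7 are lower in all 6, while the groups overlap in the other 6 genes.

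The gene of p53 itself showed no rise. Trp53 (chr11:69469669-69482701, GRCm39) ranged from 22.0 to 32.3 FPKM in CTR with a median of 28.2, and from 16.9 to 30.1 in dKO with a median of 19.5. Of the 6 dKO libraries 4 lay below every CTR library, and dKO replicate 1, at 30.1, lay among the high CTR libraries. The log2 fold change was −0.33 (SE 0.14, 95% interval −0.62 to −0.03), with an adjusted p of 0.0631 by limma and p = 0.0606 in a two-sided exact permutation test over 924 splits. Without dKO replicate 1 the difference passed (−0.42, adjusted p = 0.0109), as it did without CTR replicate 4 (0.0362) or dKO replicate 5 (0.0426). The family members Trp63 and Trp73 were too low to test, at 0.0350 to 0.409 and 0 to 0.0328 FPKM in CTR and 0.00768 to 0.0797 and 0 to 0.0206 in dKO, where the highest count of Trp73 fragments in any library was 3. Wrap53, a gene on the opposite strand, shares 263 exon bases with Trp53, and a Trp53 pseudogene matches it at 95.6% identity over 899 bases. Whether counting used strand is not given in the sources used here, so reads of overlapping partners cannot be told apart.

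Mdm2, the ligase that marks p53 for degradation, rose about as far as Cdkn1a. Its level (chr10:117524780-117546730) ranged from 22.0 to 39.0 FPKM in CTR, median 29.0, and from 34.4 to 108 in dKO, median 55.2. Replicate 1 stood highest among the dKO libraries, and replicate 4, at 34.4, was the single dKO library inside the CTR range. The log2 fold change was 0.96 (SE 0.21, 95% interval 0.50 to 1.42, adjusted p = 0.00225), and it was 0.78 without dKO replicate 1 (adjusted p = 0.00144). Usp7 (chr16:8506590-8610241) moved the other way by a small and even amount, from 17.8 to 18.9 FPKM in CTR, median 18.5, to between 15.4 and 17.01 in dKO, median 16.5. The groups did not overlap, and the dKO mean was 88.0% of the CTR mean (log2 fold change −0.18, SE 0.05, adjusted p = 0.00765). With median-of-ratios scaling the difference was −0.09 (adjusted p = 0.119).

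**Figure D2:**
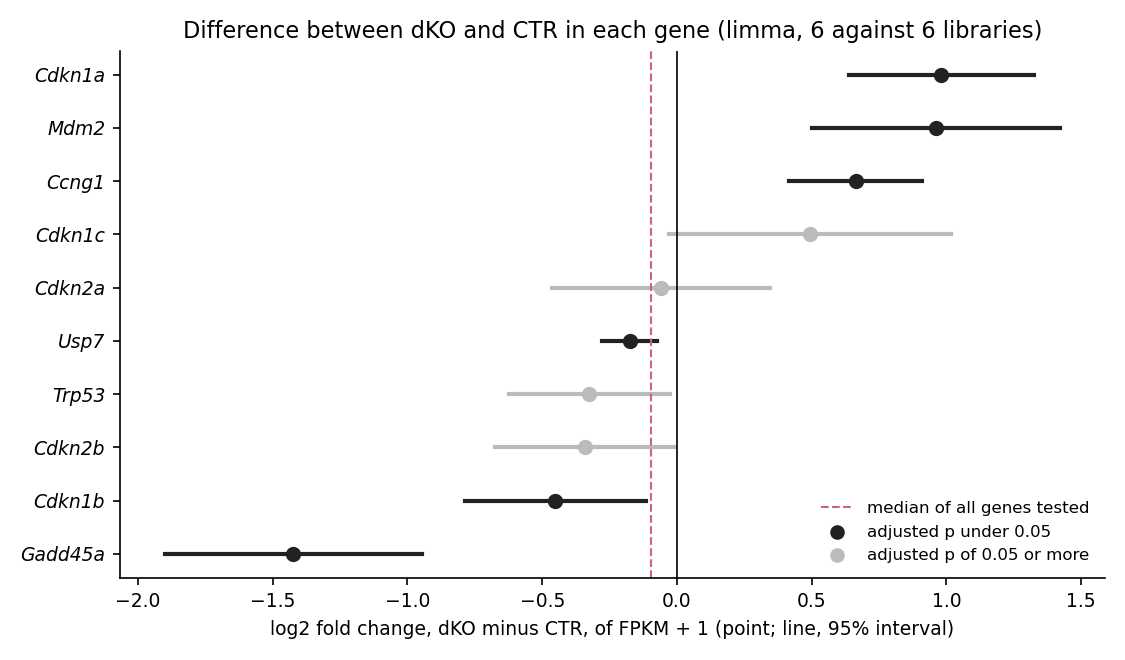
Log2 fold change of FPKM + 1, dKO minus CTR (x axis; point, with the 95% interval as a line), for the 10 genes; black marks an adjusted p under 0.05, grey a higher one, and the dashed line is the median of all genes tested, −0.10. Cdkn1a (0.98), Mdm2 (0.96) and Ccng1 (0.66) lie to the right, and Gadd45a (−1.42) lies farthest to the left.

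Ratios within a library do not depend on how libraries are scaled to each other, and 5 were compared. The Mdm2 to Trp53 ratio ranged from 0.981 to 1.21 in CTR, median 1.08, and from 2.04 to 3.58 in dKO, median 2.77. The 2 groups were separated by a wide gap, and the CTR libraries, whose Mdm2 and Trp53 levels each varied, held a nearly constant ratio. The log2 difference was 1.32 (SE 0.14) with p = 0.00216, the smallest p the exact two-sided permutation test allows, and 0.00541 after Benjamini-Hochberg adjustment over the 5 ratios. The Mdm2 to Usp7 ratio ran from 1.24 to 2.06 in CTR and from 2.22 to 6.34 in dKO (exact permutation p = 0.00216, adjusted 0.00541). The Cdkn1a to Cdkn1b ratio ran from 3.15 to 9.33 in CTR and from 8.96 to 34.5 in dKO, higher in 5 of the 6 dKO libraries than in any CTR library (log2 difference 1.46, SE 0.35, exact permutation p = 0.00433, adjusted 0.00722). Neither the Cdkn2a to Cdkn2b ratio (0.145 to 0.269 and 0.173 to 0.283, log2 difference 0.28, SE 0.16, adjusted exact p = 0.160) nor the Ccng1 to Ccng2 ratio (7.39 to 20.9 and 13.4 to 35.0, log2 difference 0.44, SE 0.30, adjusted exact p = 0.195) passed.

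**Figure D3:**
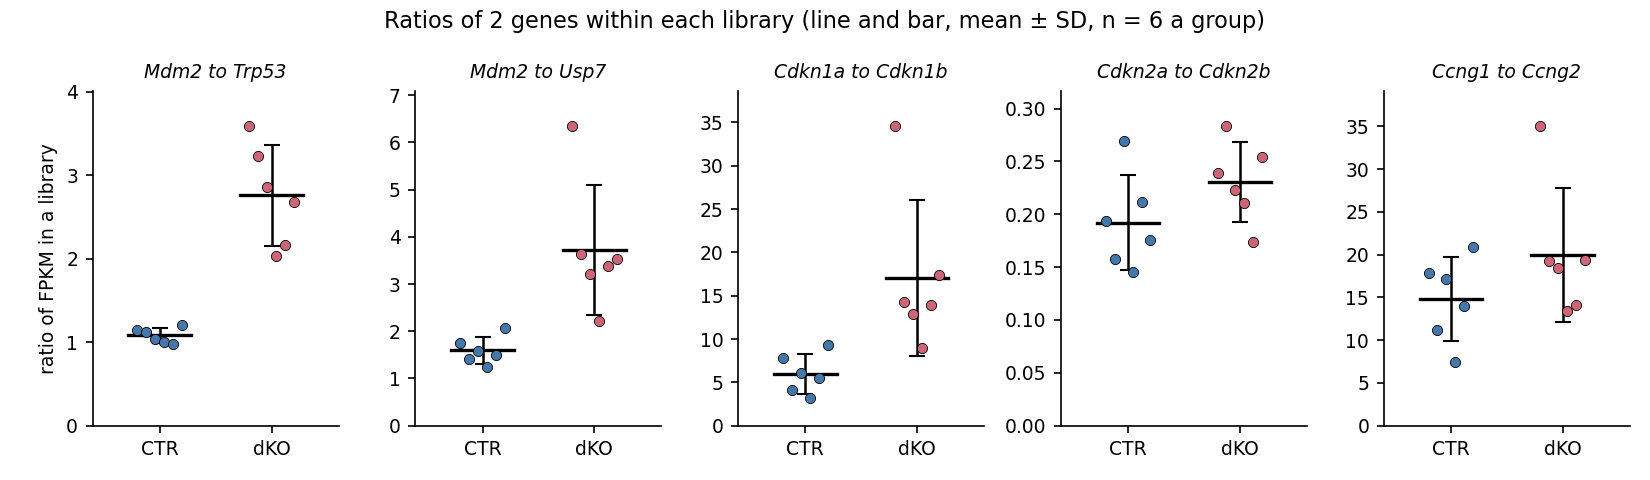
Ratio of the FPKM of 2 genes in each library (y axis, from 0, a scale for each panel) for 6 CTR (blue) and 6 dKO (red) libraries, with mean ± SD. The Mdm2 to Trp53 ratio is at most 1.21 in CTR and at least 2.04 in dKO, whereas the ranges of the Cdkn2a to Cdkn2b and Ccng1 to Ccng2 ratios overlap.

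Cdkn1a, which encodes p21, had the highest mean FPKM of the 10 genes in both groups and rose to 1.98 times its CTR mean. It lies at chr17:29309936-29319701 and ranged from 92.7 to 172 FPKM in CTR, median 125, and from 195 to 357 in dKO, median 245. The lowest dKO library was above the highest CTR library (log2 fold change 0.98, SE 0.16, 95% interval 0.64 to 1.32, adjusted p = 0.000246). The long non-coding RNA Dino, itself a p53 target, is annotated on the opposite strand and shares 504 of the 6045 annotated exon bases of Cdkn1a. The length behind the FPKM of Cdkn1a was 2223 bases, so how far Dino overlaps the exons counted is not known. Ccng1 encodes cyclin G1, an unusual cyclin that takes part in the Mdm2 feedback on p53. At chr11:40639377-40646148, it ranged from 94.8 to 139 FPKM in CTR, median 120, and from 157 to 246 in dKO, median 182, again without overlap (log2 fold change 0.66, SE 0.11, adjusted p = 0.000377).

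Gadd45a is counted among the classical p53 targets yet moved against the other 3. Its product binds PCNA and stress kinase regulators and is induced by DNA damage and by other stress pathways as well. It lies at chr6:67012070-67014441 and ranged from 20.9 to 68.5 FPKM in CTR, median 36.6, and from 10.7 to 16.0 in dKO, median 12.4. The CTR libraries were widely spread and the dKO libraries lay close together, all below the lowest CTR library (log2 fold change −1.42, SE 0.22, 95% interval −1.90 to −0.95, adjusted p = 0.000186). The dKO mean was 33.5% of the CTR mean. The antisense gene E230016M11Rik covers 990 of its 1774 exon bases and was listed at 0.209 FPKM in CTR and 0.0592 in dKO.

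Among the other Cip/Kip genes, Cdkn1b fell and Cdkn1c did not pass. Cdkn1b (chr6:134897364-134902476), whose product p27 restrains CDK2 in resting cells, ranged from 18.4 to 29.4 FPKM in CTR, median 21.8, and from 10.3 to 21.7 in dKO, median 17.2. In 5 of the 6 dKO libraries it was below every CTR library (log2 fold change −0.45, SE 0.16, adjusted p = 0.0269). The call was lost without CTR replicate 2 (adjusted p = 0.0590), CTR replicate 4 (0.0535) or dKO replicate 6 (0.0507), with no filter (0.0557), with quantile normalization (0.0501) and with median-of-ratios scaling (0.0823), the log2 fold change staying between −0.53 and −0.33. Cdkn1a and Cdkn1b had opposite extremes: dKO replicate 1 had the highest Cdkn1a and the lowest Cdkn1b of the dKO libraries, and CTR replicate 4 had the lowest Cdkn1a and the highest Cdkn1b of the CTR libraries. Cdkn1c (chr7:143012069-143014806) was low, from 1.09 to 5.62 FPKM in CTR, median 2.35, and from 2.34 to 6.14 in dKO, median 3.71, on 38 to 208 fragments a library. Its log2 fold change was 0.49 (SE 0.24, 95% interval −0.03 to 1.02, adjusted p = 0.103). CTR replicate 4 was far above the other CTR libraries, and without it the difference was 0.68 with an adjusted p of 0.0108.

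The INK4 genes showed no call. Cdkn2a (chr4:89192708-89212890), the gene of p16 and p19Arf, ranged from 1.95 to 3.97 FPKM in CTR, median 3.10, and from 1.81 to 4.45 in dKO, median 2.59. The groups overlapped almost wholly (log2 fold change −0.06, SE 0.19, adjusted p = 0.806), and the 95% interval of the difference ran from −0.46 to 0.35 on 38 to 81 fragments a library, so a shift within it was not detectable in these libraries. Cdkn2b (chr4:89223204-89229276), its neighbour and the gene of p15, ranged from 13.1 to 17.96 FPKM in CTR, median 15.3, and from 8.56 to 18.6 in dKO, median 12.02. In dKO, 5 libraries were below every CTR library and replicate 1 was above every one (log2 fold change −0.34, SE 0.15, adjusted p = 0.0791). Without that replicate it was −0.46 with an adjusted p of 0.00637.

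Cdkn1a dominated the CDK inhibitor genes in both groups. It made up on average 60.04% and at most 71.7% of the summed FPKM of the 7 inhibitor genes in CTR, and on average 78.05% and at least 72.0% in dKO, and the sum was 185 to 241 FPKM in CTR and 270 to 421 in dKO. FPKM is a level per length of transcript, so these genes can be set beside each other on that scale. In CTR the order by mean was Cdkn1a, Cdkn1b, Cdkn2c, Cdkn2d, Cdkn2b, Cdkn2a and Cdkn1c. Cdkn1a stood clear of all the others in every library, the 4 genes from Cdkn1b to Cdkn2b overlapped their neighbours in range, and Cdkn2a and Cdkn1c overlapped each other and lay below the rest. Of the 2 inhibitor genes outside the 10, Cdkn2c (p18) fell from 22.3 ± 4.47 to 13.9 ± 3.21 FPKM (log2 fold change −0.65, adjusted p = 0.00414). Cdkn2d (p19Ink4d) was 17.9 ± 4.37 and 20.1 ± 2.32 FPKM (adjusted p = 0.254), although it passed without CTR replicate 1 (adjusted p = 0.0351). Of the 7 inhibitor genes, 1 rose (14.3%) and 2 fell (28.6%), near the 20.4% and 32.6% of all genes tested. Their median log2 fold change was −0.06.

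**Figure D4:**
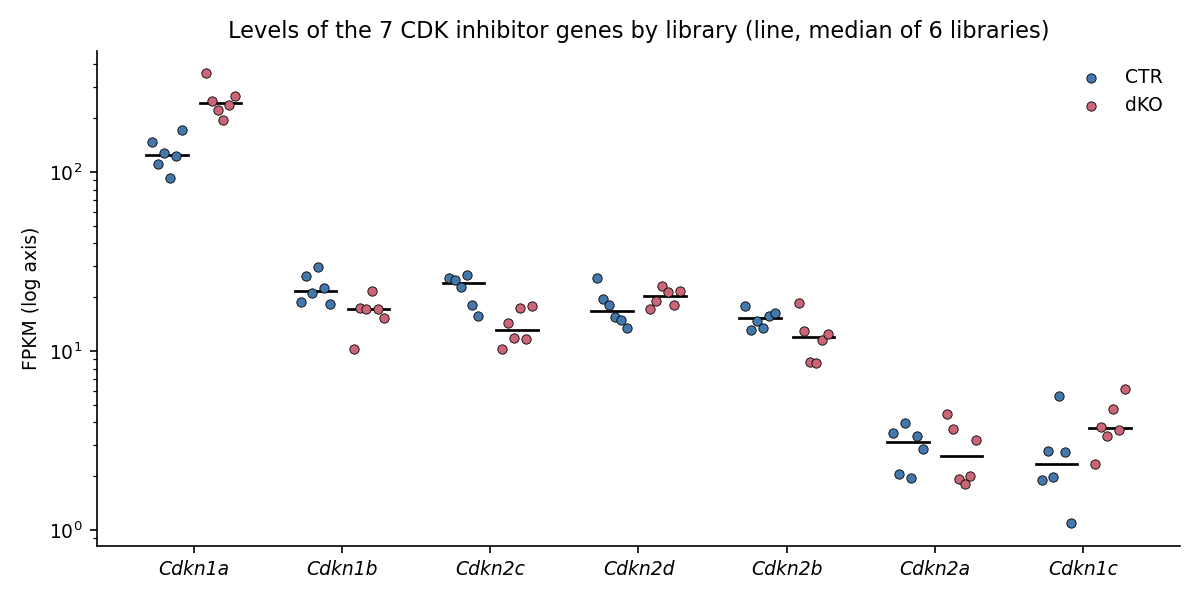
FPKM on a log axis of the 7 CDK inhibitor genes in each CTR (blue) and dKO (red) library, ordered by the CTR mean, with the median of 6 libraries as a line. Cdkn1a is above every other inhibitor in all 12 libraries, from 92.7 to 357 FPKM, while Cdkn2a and Cdkn1c stay between 1.09 and 6.14.

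Ccng2, the nearest relative of Ccng1, was 8.66 ± 2.52 FPKM in CTR and 9.98 ± 1.74 in dKO (adjusted p = 0.295). Gadd45b rose from 19.8 ± 6.78 to 27.9 ± 3.82 FPKM (log2 fold change 0.52, adjusted p = 0.0217), although without CTR replicate 3 its adjusted p was 0.0508. Gadd45g (46.1 ± 14.9 and 52.2 ± 12.6 FPKM, adjusted p = 0.424) and Gadd45gip1, a GADD45-binding protein gene (5.17 ± 0.919 and 4.13 ± 0.478 FPKM, adjusted p = 0.0509), did not pass. Gadd45gip1 passed without CTR replicate 4 (adjusted p = 0.00678), dKO replicate 1 (0.0402) or dKO replicate 6 (0.0448). Of the 6 genes on the cyclin G and GADD45 list, 2 rose (33.3%, beside 20.4% of all genes tested) and 1, Gadd45a, fell (16.7%, beside 32.6%).

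In a wider list of 30 p53 targets, all of which were tested, 16 rose (53.3%, beside 20.4% of all genes tested) and 3 fell (beside 32.6%). The median log2 fold change was 0.43, beside −0.10 over all genes tested. Leaving out the 4 targets described above, 13 of 26 rose and 2 fell. The largest rises were those of Ephx1, an epoxide hydrolase gene, from 46.1 ± 6.18 to 117 ± 16.9 FPKM (log2 fold change 1.33, adjusted p = 1.8e-06), and Fas, a death receptor gene, from 6.22 ± 1.72 to 16.5 ± 5.36 FPKM (1.26, adjusted p = 0.000109). Besides Gadd45a, the targets that fell were Sesn2, a sestrin gene that is also induced in the amino acid stress response, from 35.0 ± 5.84 to 18.4 ± 1.68 FPKM (−0.88, adjusted p = 3.2e-05), and Rrm2b, a ribonucleotide reductase subunit gene, from 3.95 ± 0.610 to 3.14 ± 0.269 FPKM (−0.25, adjusted p = 0.0250). The call of Rrm2b was lost in 6 of 20 alternatives, among them leaving out CTR replicate 3 (adjusted p = 0.0593), CTR replicate 6 (0.0504) or dKO replicate 6 (0.0541), and was weakest with quantile normalization (0.104). The 11 other targets did not pass. The lists were drawn up with earlier results of these libraries known, so their counts are no independent evidence of a direction.

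Mdm2 was the exception among the regulators of p53. Of 15 regulator genes 10 fell (66.7%, beside 32.6% of all genes tested) and 1, Mdm2, rose, with a median log2 fold change of −0.25. With limma-voom 8 fell. Mdm4, the partner of Mdm2 that restrains p53 activity, fell from 11.4 ± 1.13 to 5.42 ± 1.09 FPKM (log2 fold change −0.97, adjusted p = 2.1e-05), the largest fall on the list. Cop1, another E3 ligase that acts on p53, fell from 5.82 ± 0.556 to 3.41 ± 0.293 FPKM (−0.63, adjusted p = 1.6e-05). In both genes every dKO library was below every CTR library.

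**Figure D5:**
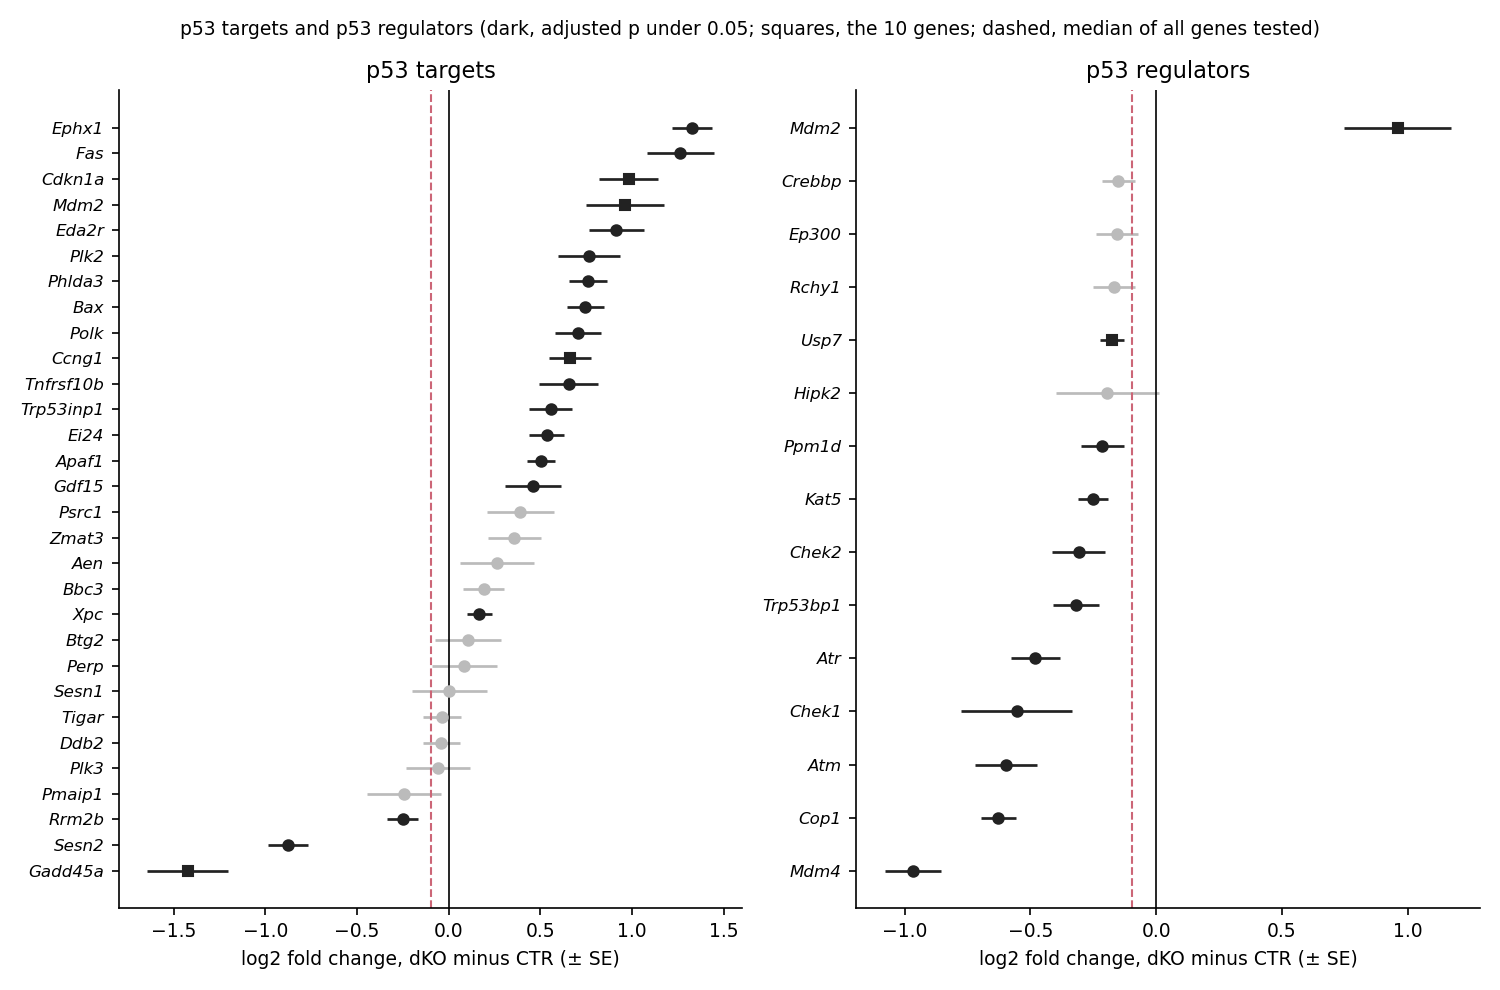
Log2 fold change, dKO minus CTR, with its SE (x axis) for 30 p53 targets (left) and 15 p53 regulators (right); dark marks an adjusted p under 0.05, squares are genes among the 10, and the dashed line is the median of all genes tested. Most targets lie to the right of 0, with Gadd45a (−1.42) and Sesn2 (−0.88) far to the left, and all regulators except Mdm2 lie to the left.

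Of 15 tested genes for G1 cyclins, their kinases, RB and E2F proteins, 5 rose (33.3%, beside 20.4% of all genes tested) and 0 fell (beside 32.6%) by limma, 10 did not pass, and the median log2 fold change was 0.11. Of those 10 genes 1, E2f4, was lower at an unadjusted p under 0.05, and limma-voom also called 0 lower. Ccnd1, the gene of cyclin D1, rose from 28.9 ± 18.2 to 54.9 ± 8.29 FPKM (log2 fold change 1.07, adjusted p = 0.00700). CTR replicate 1, at 63.2 FPKM of Ccnd1, lay within the dKO range of 42.7 to 66.6. Cdk6, a kinase that INK4 proteins bind, rose from 4.35 ± 0.439 to 7.09 ± 1.08 FPKM (0.59, adjusted p = 0.000209). Of 12 proliferation genes 0 rose (beside 20.4% of all genes tested) and 8 fell (66.7%, beside 32.6%) by limma, with a median log2 fold change of −0.69, and 0 were higher at an unadjusted p under 0.05 or with limma-voom. Ccna2, the gene of cyclin A2, fell from 22.0 ± 8.02 to 8.45 ± 1.56 FPKM (−1.22, adjusted p = 0.000507), and Plk1, a mitotic kinase gene, from 20.2 ± 7.15 to 8.37 ± 1.23 FPKM (−1.11, adjusted p = 0.000618).

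Of 6 tested genes known as repressors of Cdkn2a, 3 fell and 1 rose, beside 32.6% and 20.4% of all genes tested. Ezh2, the methyltransferase of the Polycomb repressive complex, fell from 5.88 ± 1.55 to 3.05 ± 0.618 FPKM (log2 fold change −0.74, adjusted p = 0.00108), and Suz12, another subunit, from 16.2 ± 2.88 to 11.5 ± 0.984 FPKM (−0.44, adjusted p = 0.00454). Id1, an inhibitor of helix-loop-helix factors, rose from 19.99 ± 4.11 to 45.1 ± 6.05 FPKM (1.15, adjusted p = 1.7e-05). Of 11 tested genes linked with senescence 3 rose (27.3%) and 4 fell (36.4%), near the 20.4% and 32.6% of all genes tested. The list was not split by the direction expected of each gene in senescence, so these counts do not describe senescence, which was not tested. The chemokine gene Ccl2 rose from between 8.55 and 13.4 FPKM in CTR to between 50.9 and 406 in dKO (3.02, adjusted p = 5.1e-05), and Mmp12, a macrophage elastase gene, from 0.317 ± 0.0998 to 7.76 ± 3.07 FPKM (2.67, adjusted p = 6.5e-07). Igfbp3, a growth factor binding protein gene, fell from 390.5 ± 187 to 147 ± 16.9 FPKM (−1.28, adjusted p = 0.000871), and Hmgb2, a chromatin protein gene, from 29.7 ± 9.15 to 14.3 ± 1.80 FPKM (−0.96, adjusted p = 0.000435). Also called on this list were Mmp3, higher (0.69, adjusted p = 0.000753), and Lmnb1 (−0.76, adjusted p = 0.00777) and Hmgb1 (−0.76, adjusted p = 7.1e-06), both lower.

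Libraries differed from each other in a similar way across several of the 10 genes. In dKO, replicate 1 had the highest value of 8 genes and the lowest of the other 2, Cdkn1b and Cdkn1c, and replicate 4 had the lowest value of 7. In CTR, replicate 4 had the lowest value of 7 genes and replicate 6 the highest of 5. The levels most like Cdkn1a over the 12 libraries, by Pearson's r of log2(FPKM + 1) and as a description in which the group difference takes part, were those of Tuba4a, an alpha tubulin gene (r = 0.992), Cd80, a co-stimulatory ligand gene of antigen-presenting cells (r = 0.984), and Tgfb2, a growth factor gene (r = 0.979). Cd80 went from 4.08 ± 1.40 to 15.0 ± 5.85 FPKM. Those most like Trp53 included Dph5 (r = 0.946) and Rpf2 (r = 0.945), which act in diphthamide synthesis and ribosome assembly.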

How the data were processed

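RNA-seq was performed on 12 MLEC libraries, 6 CTR and 6 dKO, grouped by their titles. The authors deposited gene-level FPKM values, which scale fragments by transcript length and library depth. Per the study's methods, reads were checked with FastQC, trimmed with Trimmomatic and aligned with STAR to mm39, with unique reads kept, while the submitters' processing notes also name Bowtie2 2.2.3, HISAT2 2.1.0, TopHat2 and DESeq2. The counting program, annotation and use of strand are not given in the sources used here. The labels' extraction protocol names another tissue and kit than the study's methods. The columns of the dKO libraries carry another name than their titles and were assigned by elimination, both groups having received tamoxifen. No column was left out.

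Because the table holds FPKM, limma 3.58.1 (R 4.3.3; lmFit and eBayes with trend) was run on log2(FPKM + 1) in place of a count test, over the 12467 genes that reached an FPKM of 1 in 6 or more libraries, with Benjamini-Hochberg adjustment over all of them. Fold changes on this scale understate those of low genes. FPKM steps gave whole fragments for 100% of values (tolerance 0.001 fragments), and limma-voom was run on these as an alternative. Symbols and GRCm39 positions came from GENCODE for 27706 of 28689 genes. Pairs of libraries within a group differed beyond sampling noise (chi-square per degree of freedom of at least 12.2). On simulated data over 12578 genes, the fit called 194 of 194 genes planted at a log2 fold change of 1 and 5 of 12384 unchanged genes. The simulation gave all genes the same fixed dispersion, drew each gene independently and changed few genes. These rates hold for that setting and were not measured for the real libraries. Exact permutation tests were two-sided. Overlapping exons came from the GENCODE annotation, whose exon bases can differ from those counted for the FPKM. Copies came from BLAST 2.17.0 (at least 95% identity over at least 300 bases). Python 3.11.15 was used for the rest.

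The named genes are the 10 genes, Sp1 and Sp3, all other genes of the p53, CDK inhibitor, cyclin G and GADD45 lists, the 2 largest rises and 2 largest falls among calls on each other list, the most abundant marker of each cell type, and the 3 genes most like Cdkn1a and Trp53, of which 1 is not reported here. E2f4, Cd3e, Mmp3, Lmnb1 and Hmgb1 were named after their values were seen. The genes and lists were chosen with earlier results of these data known.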

Additional observations from a re-analysis of the deposited data

Results flagged for a closer look

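In each gene named by the rule and in each ratio, the highest and the lowest of the 6 libraries of a group were checked for a gap to the nearest other library above Dixon's 95% critical value, as a share of the range. Of 84 groups 11 had such a library. For independent groups of normally distributed values, chance gives about 1 in 20, or 4.2 groups. These groups are not independent, since the ratios reuse gene values and the same libraries recur, so 4.2 is only a rough guide.

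In 5 cases the library was dKO replicate 1. Its Mdm2 level was 108 FPKM, against 34.4 to 59.6 in the other dKO libraries, and its Ezh2 level was 4.21 FPKM, against 2.55 to 3.13. Its Mdm2 to Usp7 ratio was 6.34 (others 2.22 to 3.63), its Cdkn1a to Cdkn1b ratio was 34.5 (others 8.96 to 17.4), and its Ccng1 to Ccng2 ratio was 35.0 (others 13.4 to 19.3). It was also the library with the fewest fragments, 15523054. CTR replicate 4 stood apart in Cdkn1c, at 5.62 FPKM against 1.09 to 2.79, and in Gadd45b, at 32.6 FPKM against 13.8 to 20.6. In dKO replicate 5, Fas was 27.1 FPKM (others 12.8 to 16.5), Ccl2 was 406 FPKM (others 50.9 to 91.4), and Trp73 was 0.0206 FPKM while the other dKO libraries were at 0. Rrm2b in dKO replicate 6 was 2.61 FPKM, below the 3.16 to 3.36 of the others.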

How the results depend on the processing

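The difference between groups was recomputed under 21 alternatives, 12 of which left out a library. Of the 10 genes, Mdm2, Cdkn1a, Ccng1, Gadd45a and Cdkn2a kept their side of the threshold in each alternative that tested them, and the other 5 did not. No called difference changed sign, in these genes or in the 25 other named genes tested, of which 5 changed sides. The count of members that rose was 3 under all alternatives except 1, without CTR replicate 4 (4, with Cdkn1c). The count that fell, 3, was 1 with median-of-ratios scaling, 5 with TPM rescaling (Trp53 and Cdkn2b added), and 2 to 5 when a library was left out, highest without dKO replicate 1. With the replicate number as a block it was 5, again with Trp53 and Cdkn2b. Samples with the same number did not deviate together in every pair (correlations −0.11 to 0.57, and 2 of 6 numbers correlated best with their own), so the numbers were not taken as pairs. All genes called numbered 6614, and 4222 of 7891 with a filter at FPKM 5, where fewer genes were tested. That filter left out Cdkn1c and Cdkn2a. Leaving out a library gave 5772 to 6736 calls. The Cdkn2a to Cdkn2b ratio, 0.28 (log2), was also 0.28 on FPKM + 1 but with p = 0.0411 in the exact permutation test, and 0.20 to 0.38 when a library was left out (lowest exact p = 0.0325, without CTR replicate 3); the causes were not tested. The other 4 ratios stayed on their side. GC boxes counted on 1 strand stood in 43.0% (gene's strand) or 38.3% (other strand) of windows, fewer by construction than the 63.2% on both. Low members such as Cdkn2a rest on as few as 38 fragments a library.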
